A study of Bos indicus with 6 samples.

Results

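The EGF family ligands and the ERBB receptors were followed in the isthmus, the segment of the oviduct next to the uterus, of 6 multiparous, healthy Nelore (Bos indicus) cows. Genes were taken by symbol, and 8 of the 10 genes of the family considered here had a row among the 24616 genes of the deposited table. These were the ligands heparin-binding EGF-like growth factor (HBEGF), epiregulin (EREG), betacellulin (BTC) and transforming growth factor alpha (TGFA), and the receptors EGFR, ERBB2, ERBB3 and ERBB4. EGF itself and amphiregulin (AREG) had no row under these symbols and were not analysed here.

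The cows formed a large follicle, large corpus luteum group (LF/LCL, cows 617, 79 and 527) and a small follicle, small corpus luteum group (SF/SCL, cows 856, 489215 and 97), with 1 RNA-seq library per cow. All cows were presynchronized with a prostaglandin F2α analog (PGF) and a GnRH agonist, and 10 days before ovulation was induced they received an intravaginal progesterone device and 2 mg of estradiol benzoate. Both groups had PGF at device removal and again later the same day, a GnRH agonist on the day of induction, and tissue collection on day 4. The groups differed in that LF/LCL cows also received PGF when the device was inserted and had it removed 42 h before GnRH, against 30 h in SF/SCL cows. The sequenced animals were not drawn at random, because the authors ranked the animals and sequenced those at the upper end of LF/LCL and the lower end of SF/SCL. The question was whether the endocrine milieu around ovulation, set by the size of the follicle and of the corpus luteum, was accompanied by different transcript abundance in the oviduct.

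ERBB receptors are tyrosine kinases that pair with each other when a ligand binds from outside the cell. The ligands are made as membrane-anchored precursors, and a protease, usually of the ADAM family, has to cut them free. ERBB2 binds no ligand and ERBB3 has little kinase activity of its own, so both act mainly as partners in heterodimers, and the active pairs drive the RAS-ERK and PI3K-AKT routes that control growth, survival and secretion of epithelia. In the reproductive tract these ligands are known as maternal growth factors to which the early embryo and the tubal epithelium can respond.

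In the 6 cows no gene of the family passed the threshold, which was a Benjamini-Hochberg adjusted p under 0.05 in limma over 15387 genes (0 of 8, against 0.00% of all genes tested). EGFR and BTC were the genes whose groups did not overlap. EGFR was lower in every SF/SCL cow, with a mean of 643 ± 421 (SD, n = 3) against 1294 ± 85.7 normalized read counts in LF/LCL, and BTC was higher in every SF/SCL cow, with 385 ± 109 against 231 ± 30.6. Non-overlap in 2 of 8 genes stood beside 18.1% of all genes tested, 9.51% with SF/SCL higher and 8.60% with SF/SCL lower. At an unadjusted p under 0.05 there was 1 of the 8, BTC, beside 8.66% of all genes in limma (4.19% with SF/SCL higher). The edgeR quasi-likelihood test likewise gave 0 adjusted and 1 unadjusted call among the 8, beside 0.00% and 8.58% of all genes. DESeq2 called 0 of the 8 at the adjusted threshold, beside 2.70% of all genes.

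One library stood apart from the rest. Cow 489215 of the SF/SCL group was the lowest of the 6 libraries for 35.7% of all genes tested and the highest for 36.7%, and among the 8 genes it was the lowest for TGFA, EGFR, ERBB2 and ERBB4 and the highest for HBEGF. Without this library 4 of the 7 family genes that could be tested passed the adjusted threshold in limma, beside 18.2% of all genes, and with each other library left out 0 passed. EGFR fell, and ERBB2, ERBB4 and TGFA rose, in the 2 remaining SF/SCL cows against LF/LCL. Values are therefore given below with and without cow 489215. The libraries held 23899117 to 34193164 reads counted to genes, 25472906 of them in cow 489215, and a normalized read count is the reads of a gene divided by the size factor of its library.

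**Figure D1:**
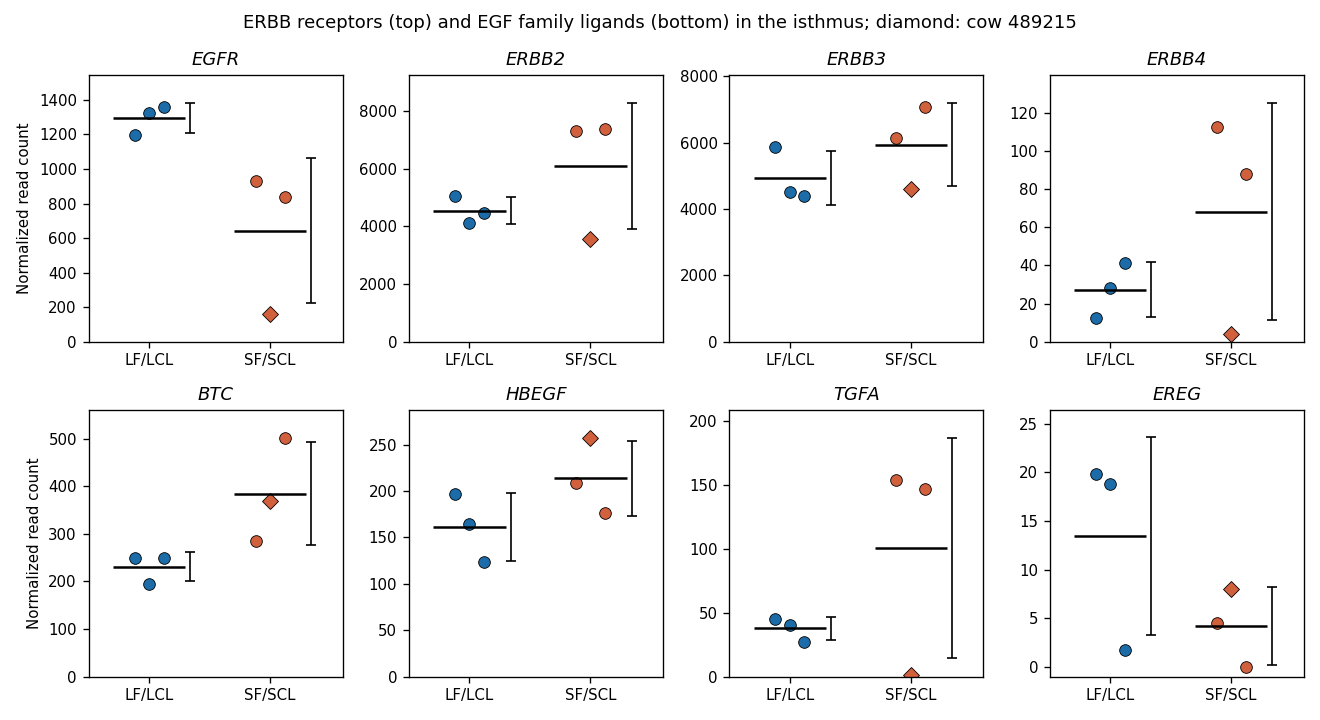
Normalized read counts (linear axes from 0, or just below it for EREG) of the 4 ERBB receptors (top) and the 4 EGF family ligands (bottom) in each cow, with the group mean (line) and SD (bar, n = 3); the diamond is cow 489215. EGFR and BTC are the panels in which the groups do not overlap, and the diamond lies at the bottom of the EGFR, ERBB2, ERBB4 and TGFA panels.

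BTC, a ligand that binds both EGFR and ERBB4, was the ligand with separated groups. It was measured at 248, 195 and 249 normalized counts in LF/LCL cows 617, 79 and 527, and at 284, 369 and 501 in SF/SCL cows 856, 489215 and 97. Every SF/SCL cow lay above every LF/LCL cow, with the nearest values 249 and 284. The log2 fold change of SF/SCL over LF/LCL, here and below on the log2(value + 1) scale, was 0.71 (SE 0.29, 95% interval 0.0021 to 1.41), with an adjusted p of 0.577 in limma. Cow 489215 was the middle SF/SCL value for BTC, and leaving it out gave 0.72 (95% interval 0.059 to 1.37), with an adjusted p of 0.121. Without cow 97, the highest value, it was 0.50, and without cow 856 it was 0.90, so BTC kept its direction when any of the 6 cows was left out.

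HBEGF is an EGFR and ERBB4 ligand that also binds heparan sulfate. It was measured at 197, 164 and 124 normalized counts in cows 617, 79 and 527, and at 208, 257 and 177 in cows 856, 489215 and 97. The groups overlapped, since SF/SCL cow 97 lay below LF/LCL cow 617, although the highest value was an SF/SCL cow and the lowest an LF/LCL cow. The log2 fold change was 0.41 (SE 0.31, 95% interval -0.32 to 1.15; limma adjusted p = 0.803), and 0.27 (95% interval -0.34 to 0.89; adjusted p = 0.504) without cow 489215. HBEGF was one of the steadier genes of the family, with the SD within groups on the log2 scale at 0.30, and BTC at 0.32, against a median of 0.43 over all genes.

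TGFA, an EGFR ligand common in epithelia, gave the widest range. It was measured at 45.0, 40.4 and 27.2 normalized counts in cows 617, 79 and 527, and at 153, 1.33 and 146 in cows 856, 489215 and 97. The LF/LCL cows were close to each other, a pair of SF/SCL cows lay far above them, and cow 489215 held 1 read (exact Poisson 95% interval 0.025 to 5.57 reads, counting error only). The mean of SF/SCL, 100 ± 85.8, was 2.67-fold that of LF/LCL, 37.5 ± 9.22, while the log2 fold change, which weighs the low value more, was -0.01 (SE 1.61, 95% interval -3.88 to 3.87; limma adjusted p = 0.999). In edgeR and in DESeq2, which compare mean counts, the log2 fold change was 1.43, with adjusted p of 0.822 and 0.739. Without cow 489215 TGFA rose in SF/SCL by 2.00 on the log2 scale (95% interval 1.21 to 2.78; limma adjusted p = 0.011), and the mean of cows 856 and 97 was 3.99-fold that of LF/LCL.

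EREG, which signals through EGFR and ERBB4, had the fewest reads of the 8 genes. Cows 617, 79 and 527 held 19, 20 and 2 reads, and cows 856, 489215 and 97 held 6, 6 and 0 reads. The floor was taken as 3 reads, which is 3.25 normalized counts in cow 97, but the fits used the value 0 itself. In normalized counts these were 19.9, 18.8 and 1.76 in LF/LCL and 4.56, 7.99 and 0 in SF/SCL. Cows 617 and 79 stood above the rest, and LF/LCL cow 527 lay among the SF/SCL cows. The log2 fold change was -1.50 (SE 1.15, 95% interval -4.27 to 1.26; limma adjusted p = 0.815), and without cow 489215 EREG failed the filter on low and variable genes, so no test was made.

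EGFR, the receptor for all 6 ligands named above, was measured at 1197, 1323 and 1361 normalized counts in cows 617, 79 and 527, and at 930, 160 and 838 in cows 856, 489215 and 97. The LF/LCL cows lay within 1.14-fold of each other, all SF/SCL cows were below them, and cow 489215 was far below the other SF/SCL cows, whose mean was 5.53-fold its value. The log2 fold change was -1.37 (SE 0.67, 95% interval -2.97 to 0.23), with an adjusted p of 0.647 in limma. Without cow 489215 EGFR fell by 0.55 on the log2 scale (95% interval -0.81 to -0.28; limma adjusted p = 0.021), and the mean of cows 856 and 97 was 0.683 of the LF/LCL mean. The size of the EGFR difference thus depended on cow 489215, and its direction was the same with any of the 6 cows left out, from -1.82 to -0.55.

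ERBB2, the receptor without a ligand, was measured at 5046, 4127 and 4456 normalized counts in cows 617, 79 and 527, and at 7313, 3569 and 7362 in cows 856, 489215 and 97. Cows 856 and 97 were nearly equal and above all LF/LCL cows, and cow 489215 was the lowest of the 6. With 6 cows the log2 fold change was 0.35 (SE 0.31, 95% interval -0.41 to 1.11; limma adjusted p = 0.844). Without cow 489215 ERBB2 rose by 0.70 (95% interval 0.44 to 0.95; limma adjusted p = 0.0096), a mean 1.62-fold that of LF/LCL.

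ERBB3, the partner that recruits PI3K when a neuregulin binds, was measured at 5871, 4526 and 4386 normalized counts in cows 617, 79 and 527, and at 6143, 4603 and 7069 in cows 856, 489215 and 97. The groups overlapped, because cow 617 exceeded cow 489215, and the highest value was 1.61-fold the lowest. The log2 fold change was 0.26 (SE 0.23, 95% interval -0.29 to 0.81; limma adjusted p = 0.841), and 0.43 (95% interval 0.073 to 0.79; adjusted p = 0.095) without cow 489215. ERBB3 had the smallest spread within groups of the family, an SD of 0.28 on the log2 scale.

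ERBB4, a receptor for neuregulins and for BTC, HBEGF and EREG, had low counts. It was measured at 12.6, 28.2 and 41.3 normalized counts in cows 617, 79 and 527, and at 112, 3.99 and 87.8 in cows 856, 489215 and 97. Cows 856 and 97 were above all LF/LCL cows, and cow 489215, with 3 reads (exact Poisson 95% interval 0.62 to 8.77 reads), was below all of them. The log2 fold change was 0.53 (SE 1.24, 95% interval -2.45 to 3.51; limma adjusted p = 0.934), and -0.28 without cow 856. Without cow 489215 ERBB4 rose by 1.97 (95% interval 0.70 to 3.24; limma adjusted p = 0.048), and the mean of cows 856 and 97 was 3.66-fold that of LF/LCL.

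**Figure D2:**
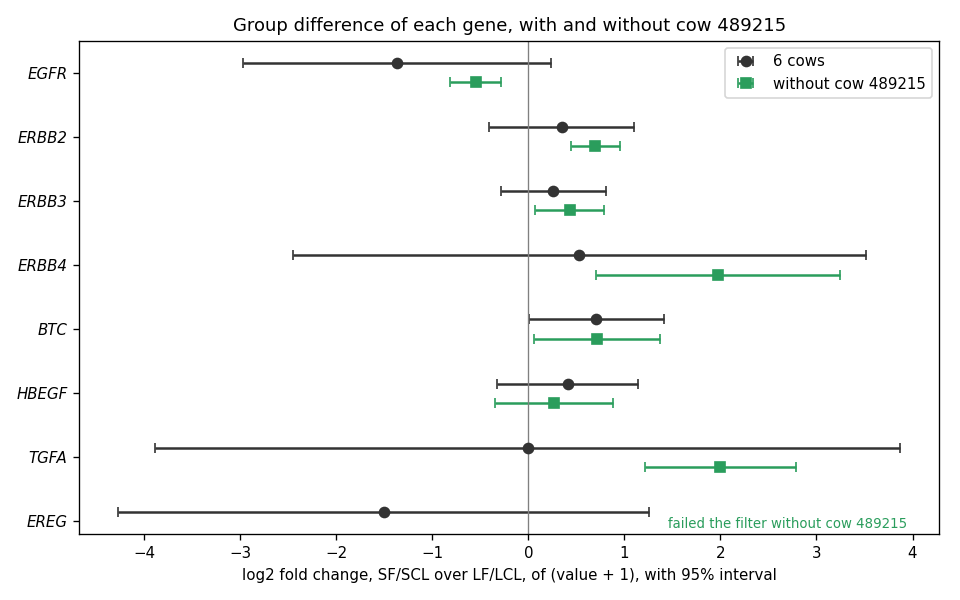
Log2 fold change of SF/SCL over LF/LCL on the log2(value + 1) scale with its 95% interval from limma, for 6 cows (circles) and without cow 489215 (squares); EREG has no square because it failed the filter. The intervals of TGFA and ERBB4 run from -3.88 to 3.87 and from -2.45 to 3.51 with 6 cows, and lie above 0 without cow 489215.

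Within groups the genes of the family differed widely in how steady they were. The SD within groups on the log2 scale was 2.47 for TGFA, 1.87 for ERBB4 and 1.66 for EREG, which put them at percentiles 99.8, 99.2 and 98.3 of all genes tested. EGFR, at 1.01, was at percentile 88.3, and ERBB2, at 0.44, was at percentile 50.3. BTC, HBEGF and ERBB3 were below the median. Without cow 489215 the median SD of all genes was 0.18.

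With cow 489215 left out, 6 of the 7 genes tested were separated between groups, beside 52.0% of all genes, HBEGF being the exception. The unadjusted p was under 0.05 for 6 of the 7, beside 33.9% of all genes. The 5 genes higher in SF/SCL were ERBB2, ERBB3, ERBB4, TGFA and BTC, beside 27.1% of all genes, and EGFR was lower, beside 24.9%. At the adjusted threshold 3 rose and 1 fell, beside 10.3% and 7.92% of all genes. Over the 7 genes tested without cow 489215 the median log2 fold change of the family was 0.70, against -0.0009 over all genes tested there. With 6 cows it was 0.30 over 8 genes, against -0.02 over all genes tested. The 8 include EREG, at -1.50, which had no fit without cow 489215, so the medians cover different genes.

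Each library was also read for the ratio of each gene to EGFR. As a plain ratio of counts this measure does not depend on the scaling between libraries. Counts were not divided by transcript length, so a ratio is compared between cows and not read as relative abundance of the transcripts. For each EGFR count there were 4.21, 3.12 and 3.27 ERBB2 counts in cows 617, 79 and 527, and 7.86, 22.3 and 8.79 in cows 856, 489215 and 97. For ERBB3 the values were 4.90, 3.42 and 3.22 against 6.60, 28.8 and 8.44. All SF/SCL cows, cow 489215 among them, had more ERBB2 and ERBB3 reads per EGFR read than any LF/LCL cow.

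The ligands BTC and HBEGF also had higher ratios to EGFR in every SF/SCL cow. BTC counts per EGFR count were 0.207, 0.148 and 0.183 in LF/LCL and 0.305, 2.31 and 0.598 in SF/SCL, and HBEGF counts per EGFR count were 0.164, 0.124 and 0.0910 against 0.224, 1.61 and 0.211. Of 7 log2 ratios to EGFR, taken with 1 added to each count, 5 did not overlap between groups, all with SF/SCL higher. The added 1 makes these log2 ratios depend on the scaling between libraries, most where counts are low. Over all genes tested the ratio to EGFR was higher in SF/SCL without overlap for 62.8% and lower without overlap for 0.104%, so most genes separated in this way when set against EGFR, and the separation is not particular to the family. The difference in mean log2 ratio, SF/SCL minus LF/LCL, was 1.78 for HBEGF, 2.07 for BTC, 1.72 for ERBB2, 1.63 for ERBB3 and 1.90 for ERBB4, each with a two-sided exact permutation p of 0.1, the smallest that 3 against 3 cows can give, and 0.14 after Benjamini-Hochberg adjustment over the 7. This permutation test could therefore not reach the threshold for any of them. The ERBB4 ratio separated by a hair, at -5.01 in the nearest cow of each group. That separation depended on the count added. With 0.5 in place of 1 the groups overlapped for ERBB4, with an exact permutation adjusted p of 0.28, against 0.175 for HBEGF, BTC, ERBB2 and ERBB3. The TGFA ratio, 1.36 higher (exact permutation p = 0.4), and the EREG ratio, -0.14 (exact permutation p = 1), overlapped. All 7 ratios share EGFR and are not independent of each other.

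**Figure D3:**
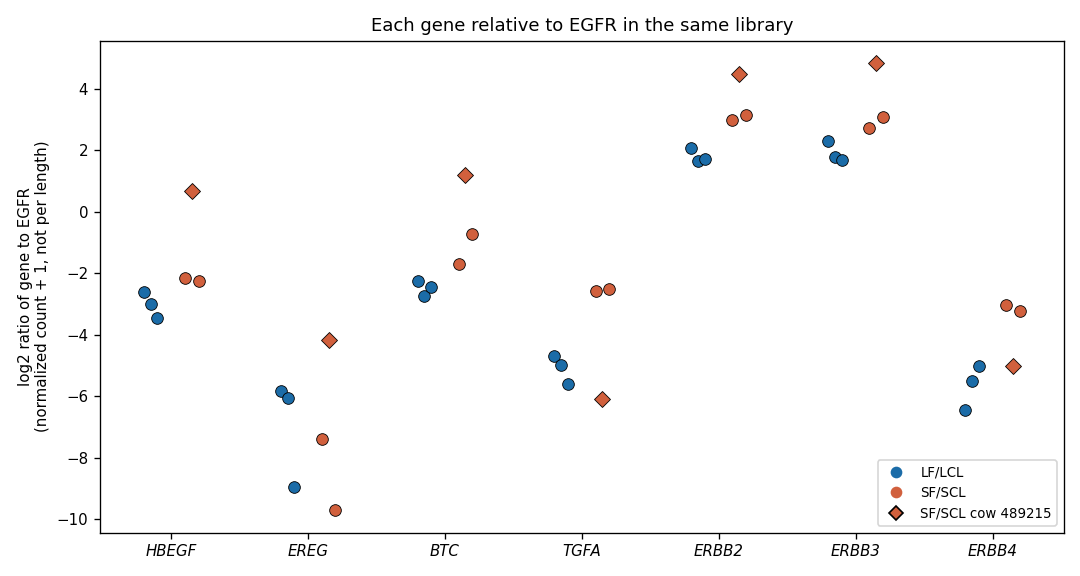
Log2 ratio of each gene to EGFR in the same library (normalized count + 1, not per length), with LF/LCL cows in blue, SF/SCL cows in orange and cow 489215 as a diamond. For ERBB2, ERBB3, BTC and HBEGF the 3 SF/SCL cows lie above the 3 LF/LCL cows and the diamond is the highest point, a separation that 62.8% of all genes showed against EGFR.

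ERBB2 and ERBB3 kept close to each other. There were 0.860, 0.912 and 1.02 ERBB2 counts per ERBB3 count in LF/LCL and 1.19, 0.776 and 1.04 in SF/SCL, which overlapped. The likeness of 2 genes was measured as the mean absolute difference of their log2 values over the 6 libraries, each gene centred on its own mean, so that 0 is the same pattern. ERBB2 and ERBB3 differed by 0.18. Of the named genes that passed the filter, 2.57% were nearer to ERBB2 than ERBB3 was, and 3.97% nearer to ERBB3 than ERBB2 was. TGFA and ERBB4 differed by 0.76, with 1.20% of genes nearer to TGFA than ERBB4 was, and 4.64% nearer to ERBB4 than TGFA was. These likenesses describe 6 shared libraries, and cow 489215 weighs in each.

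For EGFR the nearest genes were TNS1, the focal adhesion protein tensin 1, at 0.04, and GDF11, a ligand of the TGF-beta family, at 0.08. TNS1 had 19078, 20933 and 21913 normalized counts in LF/LCL and 13903, 2531 and 14344 in SF/SCL, so that, as for EGFR, every SF/SCL cow was below every LF/LCL cow and cow 489215 was far below the rest. The nearest to ERBB2 were PCSK4 and TMEM67, both at 0.04, and to ERBB3 they were ARMC2 at 0.05 and ITPRIP at 0.06. The nearest to BTC were NAAA at 0.09 and AGA at 0.10, and to HBEGF they were RMDN2 at 0.07 and C1orf110 at 0.08. The genes with low counts had looser matches, SIGLEC1 at 0.22 and MUPCDH at 0.26 for ERBB4, IKZF1 at 0.28 and CXorf22 at 0.35 for TGFA, and SULT1E1 at 0.42 and TNFRSF6B at 0.47 for EREG.

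Among the other genes of the pathway, 78 of the 81 with a row passed the filter. With 6 cows 0 passed the adjusted threshold in limma, and at an unadjusted p under 0.05 there were 8, 2 with SF/SCL higher (beside 4.19% of all genes) and 6 with SF/SCL lower (beside 4.48%), which was 10.3% of the 78 beside 8.66% of all genes. The edgeR test gave 0 adjusted and 6 unadjusted calls among the 78, beside 0.00% and 8.58% of all genes. DESeq2 gave 1 adjusted call among the 78, CBLC, beside 2.70% of all genes. Groups did not overlap for 18, which was 23.1% of the 78 beside 18.1% of all genes, and 14 of these were lower in SF/SCL, beside 8.60% of all genes. Without cow 489215, 10 passed the adjusted threshold, 7 higher and 3 lower, which was 12.8% of the 78 beside 18.2% of all genes.

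For the other EGF-like ligands, epigen (EPGN) and the neuregulins NRG1, NRG2 and NRG3, the median log2 fold change was -0.57 over 4 tested genes, all 4 negative, and 0 passed the adjusted threshold in limma or edgeR. EPGN, NRG1 and NRG2 did not overlap between groups (3 of 4, beside 8.60% of all genes lower in SF/SCL), and NRG3 overlapped. EPGN, an EGFR ligand, had 4.19, 10.3 and 11.4 normalized counts in cows 617, 79 and 527 and 0.760, 2.66 and 3.25 in cows 856, 489215 and 97, a log2 fold change of -1.58 (SE 0.63, unadjusted p = 0.042, adjusted p = 0.554 in limma) at counts near the floor. NRG2, the most abundant by count, was at 429, 506 and 384 against 366, 297 and 281, a log2 fold change of -0.48 (adjusted p = 0.647 in limma). NRG1 and NRG2, ligands of ERBB3 and ERBB4, thus lay on the opposite side from BTC, and none of the 4 passed the adjusted threshold without cow 489215, where the median was -0.69.

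The genes of the ligand shedding list, ADAM proteases among them, had a median log2 fold change of -0.24 over 8 tested genes. Without overlap there was 1 gene higher in SF/SCL and 3 lower, beside 9.51% and 8.60% of all genes. ADAM10, which releases BTC, had 2897, 3250 and 2955 normalized counts in LF/LCL and 2364, 1152 and 2241 in SF/SCL, with no overlap. Its log2 fold change was -0.73 (unadjusted p = 0.048, adjusted p = 0.573 in limma), and without cow 489215 it fell by 0.40 (limma adjusted p = 0.032). ADAM12, a sheddase of HBEGF, was at 106, 117 and 162 against 67.6, 12 and 26.0, a log2 fold change of -2.14 (unadjusted p = 0.014, adjusted p = 0.433 in limma). ADAM17, the main sheddase of TGFA, overlapped, with a log2 fold change of -0.42. CD9, the tetraspanin that binds the HBEGF precursor and the most abundant of the list by count, lay on the other side, at 11804, 9212 and 9460 against 13526, 22605 and 14311, a log2 fold change of 0.70 (unadjusted p = 0.033, adjusted p = 0.514 in limma).

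The adaptors and kinases that carry the signal had a median of -0.17 over 34 genes, and 0 of them reached an unadjusted p under 0.05 in limma or in edgeR, beside 8.66% and 8.58% of all genes. STAT3, the most abundant by count, was at 6985, 7232 and 7302 normalized counts against 8257, 9035 and 8229, without overlap, a log2 fold change of 0.24 (adjusted p = 0.758 in limma). Without cow 489215, PIK3CB, a catalytic subunit of PI3K, rose by 0.80, and AKT1 and MAPK3 (ERK1) fell by 0.43 and 0.42 on the log2 scale, with adjusted p of 0.016, 0.022 and 0.031 in limma. These 3 were 8.82% of the 34, below the 18.2% of all genes called in that fit.

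The receptor and pathway inhibitors had a median of -0.17 over 20 tested genes. CBLC, an epithelial member of the CBL ubiquitin ligases that send active receptors for degradation, was at 380, 263 and 318 normalized counts in LF/LCL and 659, 509 and 586 in SF/SCL, without overlap, a log2 fold change of 0.87 (SE 0.24, unadjusted p = 0.0093, adjusted p = 0.410 in limma). DUSP4, a phosphatase of ERK, was at 69.1, 92.9 and 54.5 against 38.7, 13.3 and 19.5, a log2 fold change of -1.66 (unadjusted p = 0.014, adjusted p = 0.433 in limma), and SOCS3, a feedback inhibitor of cytokine signalling, had -0.81 (unadjusted p = 0.049, adjusted p = 0.574 in limma). LRIG1, which lowers ERBB receptor protein and was the most abundant by count, followed the shape seen for ERBB2, with 4471, 4722 and 4604 against 8674, 1659 and 7820. Without cow 489215, 5 of the 20 rose and 0 fell in limma, beside 10.3% and 7.92% of all genes: CBL by 0.98, CBLC by 0.97, LRIG1 by 0.84, LRIG3 by 0.78 and DUSP6 by 0.38. SPRY3 and SPRY4 failed the filter.

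The ERK-responsive targets had a median of 0.09 over 12 tested genes. ETV1, a transcription factor of the PEA3 family, was at 130, 99.5 and 131 normalized counts against 52.4, 33.3 and 79.1, a log2 fold change of -1.19 (unadjusted p = 0.025, adjusted p = 0.484 in limma). EGR1, an immediate early gene and the most abundant of the list by count, overlapped, at 1584, 2664 and 1556 against 703, 2464 and 1165. Without cow 489215 CCND1 (cyclin D1) was the 1 target that passed, and it rose by 1.16 (limma adjusted p = 0.013). That was 8.33% of the 12, below the 18.2% of all genes called in that fit.

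**Figure D4:**
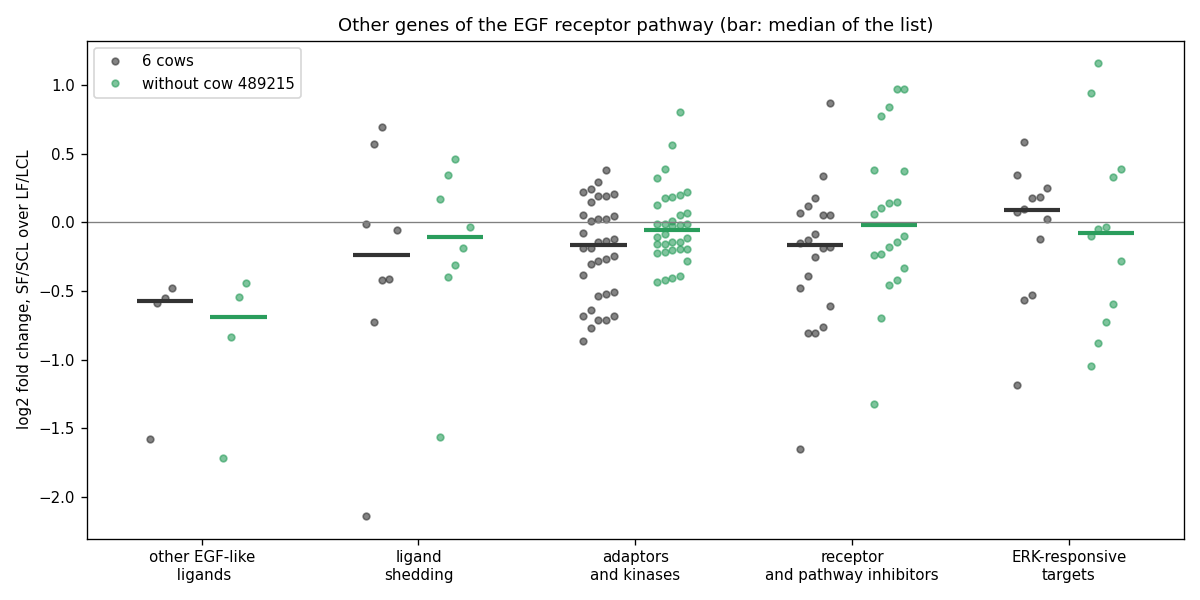
Log2 fold change of SF/SCL over LF/LCL for the tested genes of 5 pathway lists, with 6 cows (dark) and without cow 489215 (green), each point being a gene and each bar the median of its list. All 4 other EGF-like ligands lie below 0, and the medians of the other lists lie between -0.24 and 0.09.

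Markers of the cell types of the tube also differed between the libraries. The summed normalized counts of 13 epithelial markers, EPCAM and keratins among them, were 67371, 53658 and 47955 in LF/LCL and 80000, 105715 and 86010 in SF/SCL, without overlap. In limma 8 of the 13 had an unadjusted p under 0.05, all higher in SF/SCL, beside 4.19% of all genes. The log2 fold change was negative for 2 of the 13, ELF3 at -0.54 and CLDN4 at -0.07. Cow 489215 was the highest of the 6 for 9 of the 13 and the lowest for 1, GRHL2 at 112. Ciliated cell markers summed to 30733 to 39306 in LF/LCL, to 51805 and 56028 in cows 856 and 97, and to 31200 in cow 489215, with PIFO at 0 in every library. Of these, 3 of 9 tested were past the unadjusted threshold, higher in SF/SCL, beside 4.19% of all genes. Smooth muscle markers summed to 712920 to 832284 in LF/LCL, to 332940 and 390648 in cows 856 and 97, and to 1203030 in cow 489215, and 1 of 7 passed the unadjusted threshold, lower in SF/SCL, beside 4.48% of all genes. The 8 fibroblast markers, all with negative log2 fold changes, summed to 105758 to 139672 in LF/LCL and to 66914 to 99087 in SF/SCL, and 4 of the 8 passed the unadjusted threshold, beside 4.48% of all genes. In cows 856 and 97 the summed epithelial and ciliated markers were thus above and the muscle and fibroblast sums below the LF/LCL range, beside the high ERBB2, ERBB4 and TGFA and the low EGFR of these cows, and in cow 489215 the epithelial and muscle sums were both the highest of the 6, beside its low EGFR, ERBB2, ERBB4 and TGFA. The muscle markers of cow 489215 did not move together. That cow was the highest of the 6 for 4 of the 7, with ACTA2 at 533926 and TAGLN at 270402 the largest. It was the lowest for SYNPO2 at 9453, and its MYH11, at 116653, was below every LF/LCL cow. Endothelial markers summed to 12540 to 16315 in LF/LCL, to 10384 and 10787 in cows 856 and 97, and to 13359 in cow 489215. All 7 tested endothelial markers had negative log2 fold changes, and 1 of the 7 passed the unadjusted threshold, beside 4.48% of all genes. Leukocyte sums overlapped between groups. OVGP1, the oviduct glycoprotein of secretory cells, had 287, 1782 and 1950 normalized counts in LF/LCL and 271794, 730 and 325158 in SF/SCL. Of the other secretory genes, PAX8 was likewise highest in cows 856 and 97, while WFDC2 was highest in cow 489215 at 29355 and CP in LF/LCL cow 617 at 386. In cows 856 and 97 the mesothelial sums, carried by MSLN and WT1, were 26266 and 26744, against 2519 to 3499 in the other cows, while LRRN4 and BNC1 of the same list were lower in every SF/SCL cow than in any LF/LCL cow. S100B of the nerve list was at 32285 and 29027 in cows 856 and 97, against 2584 to 8852 in the others. The part of cell composition in the differences of the family was not tested, and in bulk tissue fewer cells of a type and less RNA per cell cannot be told apart.

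**Figure D5:**
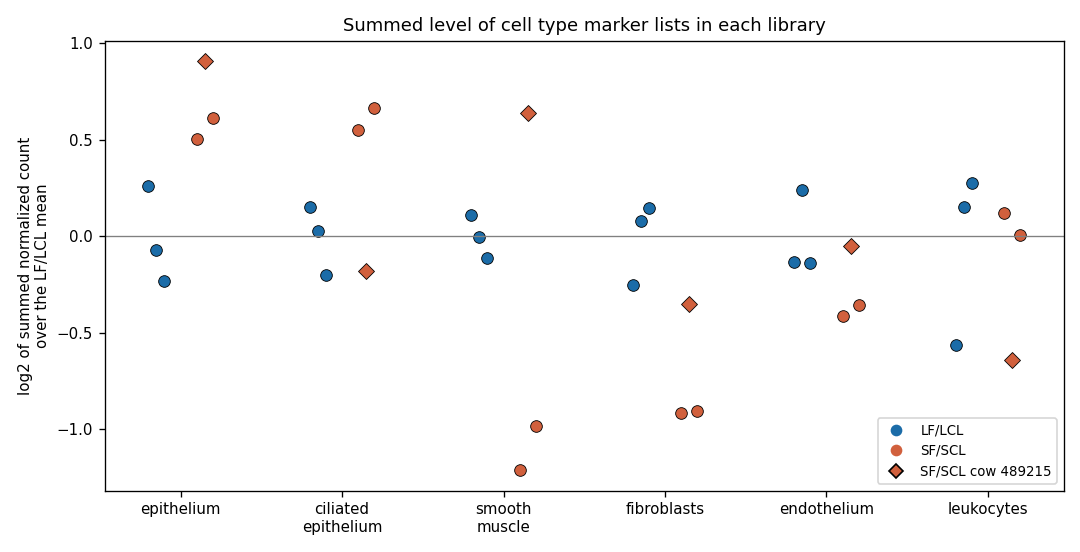
Log2 of the summed normalized count of each cell type marker list in each cow, relative to the LF/LCL mean, with cow 489215 as a diamond. The epithelial sum is higher in all SF/SCL cows, and the smooth muscle sum is below LF/LCL in cows 856 and 97 and above it in cow 489215. SYNPO2 and MYH11 of the muscle list were below every LF/LCL cow in cow 489215.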

How the data were processed

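Polyadenylated RNA of each isthmus sample was sequenced as paired ends. The authors filtered the reads, aligned them to the masked bovine assembly UMD3.1 with TopHat 2.0.8 and Bowtie2 2.1.0, sorted them with SAMtools 0.1.18, counted them per Ensembl gene with HTSeq 0.5.4p2 and divided the counts by the size factors of DESeq 1.12.1. The deposited signal values are these normalized counts. The strand setting of the counting is not given in the sources used here. Dividing each library by its step turned 100% of the values into whole reads (tolerance 0.1 read), with 23899117 to 34193164 reads per library.

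The filter of the study's methods, a mean over 5 that also exceeds the SD over the 6 libraries, kept 15387 genes, and the condition on the mean alone, an alternative below, kept 15922. With the main filter all 8 family genes passed, although EREG, TGFA and ERBB4 had means only 1.03, 1.07 and 1.10 times their SD. The main test was limma 3.58.1 in R 4.3.3 (trend, robust) on log2(value + 1), SF/SCL minus LF/LCL, without covariates, with Benjamini-Hochberg adjustment over all genes tested. Ratios were compared by two-sided exact permutation tests over the 10 divisions into 3 and 3 (scipy 1.17.1). Intervals of reads are exact Poisson intervals, which cover counting error only. Alternatives were pseudocounts of 0.5 and 5, a filter on the mean only, no filter, TMM scaling, scaling by library total, edgeR 4.0.16 and DESeq2 1.42.0 on the recovered reads, and leaving out each cow. The scripts were tested on simulated data. Of the 24616 rows, 19971 held a symbol, and 2979 of these shared their symbol with another row. Positions, lengths and sequences are left out because no reference of that assembly was used.

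The genes of the family, the pathway lists and the marker lists were chosen with earlier results of these data known. The share of all genes whose ratio to EGFR did not overlap between groups was counted after the ratios had been seen. All family genes were named. From each pathway list the text names the gene with the highest mean and, at an unadjusted p under 0.05, up to 2 with the largest changes in each direction. It also names, for each family gene, the 2 nearest in pattern. ADAM17, NRG1, and the genes named for passing without cow 489215 or in DESeq2 were chosen after their values were seen, as were the marker genes named.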

Additional observations from a re-analysis of the deposited data

How the results depend on the processing

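Cow 489215 was the library on which the calls turned. With each cow left out in turn, the number of family genes with an adjusted p under 0.05 in limma ranged from 0 to 4, with 4 only without cow 489215, and the number of pathway genes from 0 to 10, with 10 only without that cow. In the fit without cow 489215, 18.2% of all genes passed. At an unadjusted p under 0.05 the counts ranged from 0 to 6 family genes and from 3 to 25 pathway genes, with the highest of both without cow 489215, beside 33.9% of all genes. The count of family genes was 2 (BTC and EGFR) without cow 856 and 0 without cow 617, 79, 527 or 97. Over the same fits the log2 fold change ranged from -0.22 to 2.00 for TGFA, from -1.82 to -0.55 for EGFR, from 0.17 to 0.70 for ERBB2, from -0.28 to 1.97 for ERBB4, from -2.46 to -0.56 for EREG, from 0.12 to 0.43 for ERBB3, from 0.23 to 0.56 for HBEGF and from 0.50 to 0.90 for BTC. EREG could not be fitted without cow 617, 79 or 489215, TGFA without cow 856 or 97, and ERBB4 without cow 97, because they failed the filter.

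TGFA, at -0.01 with 6 cows, turned to 0.35 with a pseudocount of 5, 0.60 with scaling by library total and 1.43 in edgeR and in DESeq2. The EREG ratio to EGFR, at -0.14, was 0.46 with a pseudocount of 5 and ranged from -1.60 to 1.18 with a cow left out. The ERBB4 ratio to EGFR, separated between groups in the main setting, overlapped with a pseudocount of 0.5. BTC crossed the unadjusted threshold with the filter on the mean only, without a filter, with TMM scaling and with scaling by library total, where the count of family genes past it was 0, and its p ranged from 0.020 in DESeq2 to 0.097 with scaling by library total. DESeq2 called 1 pathway gene at the adjusted threshold, beside 2.70% of all genes. With scaling by library total the unadjusted calls over all genes were 433 higher and 908 lower in SF/SCL, against 644 and 689 with the size factors. The cause of these changes was not tested. The other 7 family genes kept their direction under every alternative that changed the pseudocount, filter, scaling or tool.

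No paired analysis was possible because the cow numbers differ between the groups and pair no samples. With 3 cows per group the exact permutation tests could not go below 0.1, and EREG had 0 to 20 reads in a library, TGFA 1 and ERBB4 3 in cow 489215.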

Other observations

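EPGN, EREG, AREG and BTC stand next to each other, in that order, on the same chromosome of the RefSeq assembly NIAB-ARS_B.indTharparkar_mat_pri_1.0, which is another assembly than that of the counts and was used only for gene order. These neighbours did not share a direction. EPGN had a log2 fold change of -1.58 and EREG of -1.50, both at low counts, while BTC had 0.71 at 195 to 501 normalized counts. AREG was not analysed here. None of the 3 passed the adjusted threshold in limma, and the difference between them was not tested.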
